A study of Mus musculus with 18 samples.

Results

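The nuclear genes that encode subunits of the oxidative phosphorylation system were followed through 18 Affymetrix arrays of mouse cerebellum. They were taken by symbol: Nduf followed by a, b, c, s or v and a number, Sdha to Sdhd, and any symbol that begins with Uqcr, Cox4 to Cox8 or Atp5. With 1 probe set for each symbol, 81 of the 18193 genes on the arrays belonged to this set: 35 of complex I, 4 of complex II, 8 of complex III, 17 of complex IV and 17 of complex V. A gene with several probe sets was read on its brightest one, by the mean of the 18 arrays. Complexes were assigned by symbol, so Ndufa4, now known as a complex IV subunit, and its relative Ndufa4l2 are counted with complex I.

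The study concerns spinocerebellar ataxia type 6 (SCA6), an inherited ataxia of the gene for the calcium channel Cav2.1. It used C57BL/6 mice of 3 lines: homozygous MPI 118Q knock-in mice, homozygous CtmKO mice, called Ctm knockouts here, and homozygous MPI 11Q knock-in mice. Each line had its own wild-type littermates, and each of the 6 groups had 3 arrays. An age of 6 weeks is given for the 118Q knock-in and Ctm knockout mice; the ages of the 11Q knock-in mice and of the wild types were not used here. In the allele names Q stands for glutamine, and the labels do not spell out MPI or Ctm.

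Oxidative phosphorylation is the last stage of respiration in mitochondria. Complex I takes electrons from NADH and complex II from succinate, complex III passes them from ubiquinol to cytochrome c, complex IV passes them to oxygen, and complex V, the ATP synthase, uses the proton gradient that complexes I, III and IV build to make ATP. Most subunits are made from nuclear genes and imported; the remaining ones come from the mitochondrial genome. Neurons that fire at high rates, such as Purkinje cells, rely on it for much of their ATP.

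The deposited values are log2 expression values, so a difference of 1 stands for a factor of 2, and the changes below are mutant minus wild-type littermates on that scale. The 18 arrays correlated with each other at 0.973 to 0.995 over all probe sets, and their medians ran from 2.38 to 2.55. The labelled tissue was borne out by 9 of 9 granule cell markers and 11 of 11 Purkinje cell markers above the median level of all genes, against 0 of 8 Hox genes of the adjoining hindbrain and 0 of 6 striated muscle genes. The transcript of the targeted gene, Cacna1a, did not check the labels: its brightest probe set ran from 5.53 to 5.79 on the 118Q knock-in arrays and from 5.51 to 6.25 on their wild types, with an adjusted p in limma of 0.341, and where it lies relative to the altered part is not known here. Ctm wild-type arrays 2 and 3 stood apart in the Y-linked genes Uty, at 2.83 and 2.84 against 3.17 to 3.74 on the other 16 arrays, and Eif2s3y, at 5.07 and 4.57 against 5.28 to 6.37, but not in Kdm5d, at 4.53 and 4.26 against 3.89 to 4.79. The labels do not say more on the independence of the replicates than that they are separate samples, so the p-values measure the spread between these samples.

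Of the 81 subunit genes, 73 had a mean level above the median of all genes and 8 below it. The median spread within a group was 0.10 (SD over the 6 groups) for the subunit genes and 0.16 for all genes. The spread among the 3 118Q knock-in arrays was the widest, with a median SD of 0.14, and that among the 3 Ctm knockouts the narrowest, with 0.053.

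In the 118Q knock-in cerebellum, 3 subunit genes rose and 0 fell at an adjusted p below 0.05 (limma, Benjamini-Hochberg over all genes). Over all genes 1.54% passed at this threshold, 0.808% higher and 0.731% lower. The genes that rose were Ndufa6, Ndufb9 and Uqcr10, each by a factor of about 1.3. The set as a whole lay on the high side: 66 of 81 changes were above 0, with a median of 0.22, where over all genes 58.7% were above 0 and the median was 0.040. Among genes left without the dimmer 50%, which hold 73 of the 81, 60.1% were above 0, with a median of 0.057. In bulk tissue, fewer cells of a type and less RNA per cell cannot be told apart, and the same holds for more cells and more RNA.

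Ndufa6 encodes an accessory subunit of the matrix arm of complex I. Its values were 8.63, 8.79 and 8.73 on the 118Q knock-in arrays and 8.23, 8.35 and 8.29 on their wild types. All 3 knock-ins were above all wild types of the 3 lines, and the other 15 arrays lay between 8.10 and 8.38. The change was 0.43 (SE 0.086, adjusted p = 0.0264 in limma), a factor of 1.34.

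Ndufb9 encodes an accessory subunit of the membrane arm of complex I. The knock-in arrays read 9.42, 9.54 and 9.55 and the wild types 9.01, 9.27 and 9.02. The groups did not overlap, although wild-type array 2 stood well above the other two. The change was 0.40 (SE 0.089, adjusted p = 0.034 in limma), and its dimmer probe sets gave 0.46 and 0.14.

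Uqcr10 encodes one of the small subunits that surround the catalytic core of complex III. It read 8.25, 8.60 and 8.47 on the knock-in arrays and 8.09, 8.09 and 7.85 on the wild types. Knock-in array 1 was the lowest of the 3 here, as it was for the other 2 genes that rose, yet it exceeded every wild type. The change was 0.43 (SE 0.10, adjusted p = 0.0437 in limma). Its other probe sets, both dimmer, gave 0.35 and 0.12.

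**Figure D1:**
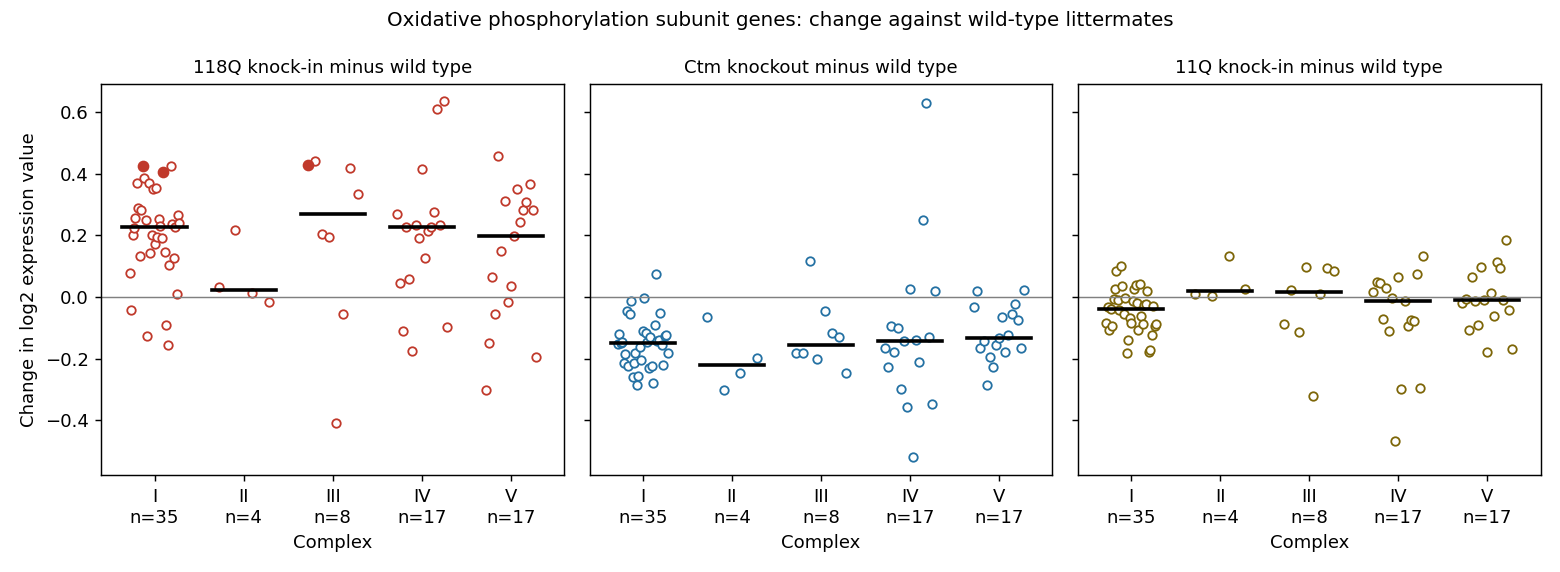
Change in log2 expression value against wild-type littermates for each of the 81 subunit genes, by complex, in the 118Q, Ctm and 11Q lines. Each point is 1 gene, filled where its adjusted p was below 0.05, and the bar is the median of the complex; medians lie at 0.20 to 0.27 in 118Q except for complex II at 0.023, and at -0.13 to -0.22 in Ctm.

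The 3 calls depended on single arrays. Without wild-type array 1, wild-type array 3, knock-in array 2 or knock-in array 3 no subunit gene passed. In that order, 0.374%, 0.011%, 0.0385% and 0.0165% of all genes passed, against 1.54% with all arrays. Without wild-type array 2 the count was 2, with 1.32% of all genes. Without knock-in array 1 it was 25, 24 higher and 1, Atp5a1, lower, where 5.17% of all genes passed. In a fit of the 6 arrays alone 0 subunit genes and 0% of all genes passed. The median over the 81 genes stayed between 0.18 and 0.29 when any 1 array was left out.

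Below the threshold, the picture within 118Q was one of many small positive differences. Unadjusted p-values below 0.05 were reached by 41 subunit genes on the high side, where 10.5% of all genes reached it, and by 2 on the low side, where 5.69% did. In 27 of the 81 all 3 knock-ins lay above all 3 wild types, and in 0 below; over all genes the shares were 12% and 6.11%. Counted against all 9 wild types of the study, the knock-ins were higher without overlap for 19 subunit genes, against 5.24% of all genes, and lower for 0, against 1.88%.

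Among the 35 genes of complex I, Ndufa6 and Ndufb9 included, 31 changes were positive, with a median of 0.23, and those of Ndufa9, Ndufa10, Ndufc2 and Ndufs1 were negative. Ndufs4, an accessory subunit whose loss in mice causes a Leigh-like brain disease, read 7.14, 7.57 and 7.48 on knock-in arrays and 6.88, 7.08 and 6.96 on wild types. Its knock-in values exceeded all wild types, and the change of 0.43 (SE 0.11) missed the threshold with an adjusted p of 0.0513 in limma; the mean of the gene's probe sets gave 0.11. Ndufa7 and Ndufa3, both accessory subunits, were at 0.39 (adjusted p = 0.0593) and 0.37 (adjusted p = 0.0771).

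Complex I splits into a conserved core that carries out electron transfer and an outer shell of accessory subunits that have no part in the chemistry. The 27 accessory genes had a median change of 0.24 in 118Q, with 24 above 0. The 6 core genes measured had a median of 0.12, with 5 above 0. Ndufs1, the largest core subunit, was at -0.16 (SE 0.094, adjusted p = 0.441), and Ndufv2, a small iron-sulphur core subunit, at 0.27 (SE 0.080, adjusted p = 0.0984), while its other probe sets gave 0.032 and 0.082. This and the following groupings by role were made after the values were seen, so they describe the genes and carry no test.

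Complex II, succinate dehydrogenase, also belongs to the citric acid cycle and was the flattest complex in 118Q, with a median of 0.023 over its 4 genes. Sdhb, the iron-sulphur subunit, read 8.59, 8.71 and 8.66 on knock-in arrays and 8.37, 8.53 and 8.41 on wild types. These groups did not overlap, and the change of 0.22 (SE 0.086) had an adjusted p of 0.214 in limma. The flavoprotein gene Sdha was at 0.033 and the membrane anchor genes Sdhc and Sdhd at 0.012 and -0.015, all with overlapping groups. For Sdha the sign depended on the setting, since the mean of its probe sets gave -0.082.

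In complex III the 5 small subunit genes were all above 0, with a median of 0.42; besides Uqcr10 these were Uqcrh, the hinge protein gene, at 0.42 (SE 0.11, adjusted p = 0.0676), Uqcr11 at 0.44, Uqcrq at 0.33 and Uqcrb at 0.20. Of the core protein genes, Uqcrc1 was at 0.19 and Uqcrc2 at -0.41 (SE 0.19, adjusted p = 0.296), but a second Uqcrc2 probe set of similar brightness gave -0.036. Uqcrc2 varied widely among wild types, from 8.19 over 8.58 to 8.98, and the knock-ins at 8.47, 7.84 and 8.20 overlapped with them. The Rieske iron-sulphur protein gene Uqcrfs1 was at -0.056.

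Among the 10 complex IV genes of general use, here with Ndufa4, 9 were above 0, with a median of 0.23. Cox6c, a small membrane subunit, read 10.04, 10.48 and 10.44 on knock-in arrays and 9.94, 9.98 and 9.80 on wild types, without overlap. Its change was 0.42 (SE 0.11, adjusted p = 0.0535), against 0.093 on its other probe set. Cox4i1, the common form of subunit 4, was at 0.27 (SE 0.089, adjusted p = 0.127), again without overlap. Cox5a, by contrast, was at -0.11 with overlapping groups, and its other probe sets, both dimmer, gave -0.38 and -0.32.

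In the ATP synthase, the 5 genes of the membrane part (Atp5j2, Atp5k, Atp5l, Atp5md and Atp5mpl) ran from 0.24 to 0.37. Of the 5 genes of F1, the catalytic part, 3 were below 0. Atp5a1 was at -0.30 (SE 0.12, adjusted p = 0.224 in limma), Atp5b at -0.15 (SE 0.098, adjusted p = 0.489) and Atp5d at -0.054. A second Atp5a1 probe set of the same brightness gave -0.089, and knock-in array 1, at 9.71, lay inside the wild-type range of 9.57 to 9.77. The small F1 subunit gene Atp5e was at 0.46 (SE 0.14, adjusted p = 0.108 in limma). It read 8.54, 9.29 and 9.03 on knock-in arrays, of which the first lay inside the wild-type range of 8.34 to 8.63. Atp5o, which joins the stalk to the head, was at 0.28 (SE 0.087, adjusted p = 0.107), without overlap, and the stalk gene Atp5pb at -0.20.

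**Figure D2:**
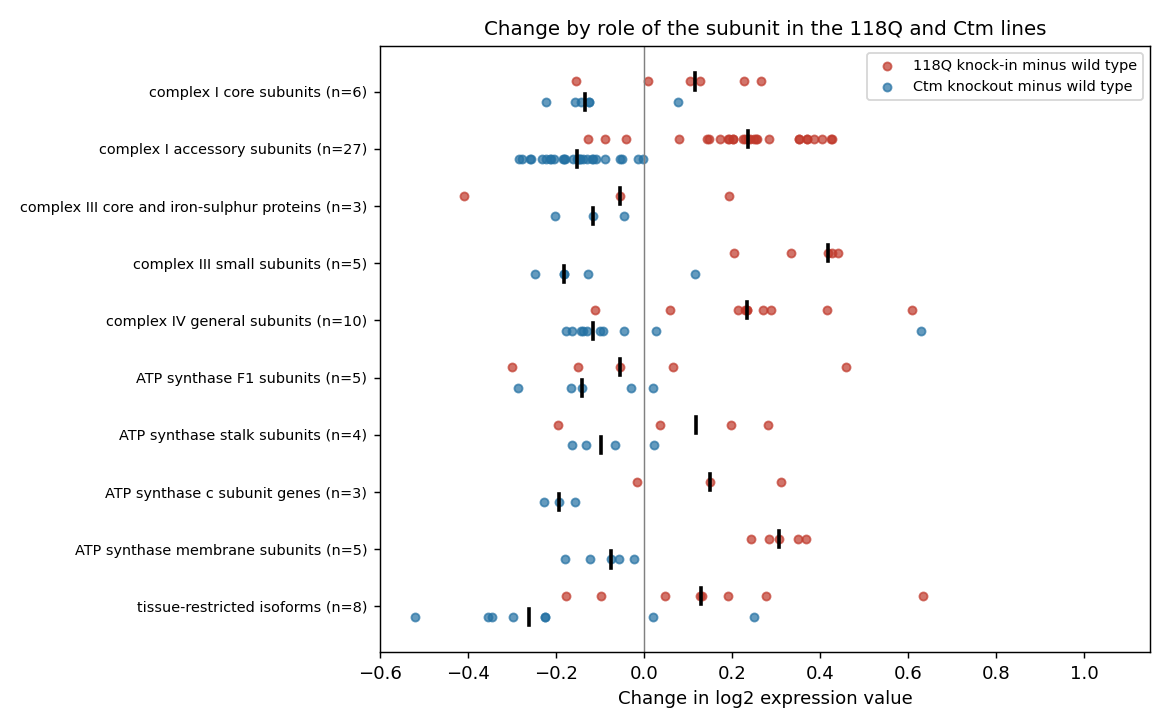
Change in log2 expression value (horizontal axis) by role of the subunit (rows), for 118Q (red) and Ctm (blue); each point is 1 gene and the black bar the median. The 118Q medians run from -0.056 for the complex III core and iron-sulphur proteins to 0.42 for the complex III small subunits. That of the F1 subunits is -0.054, and the Ctm medians lie below 0 in all 10 groups.

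Several other measures moved with the 118Q group. The signal of the 3' ends minus that of the 5' ends of 2 control transcripts (Gapdh and beta-actin), which grows as RNA degrades, was 0.41 to 0.47 on knock-in arrays and 0.50 to 0.61 on their wild types. With this measure as a covariate the median change of the subunit genes was 0.19 and 0 passed, where 0.203% of all genes did. Of 11 microglia markers 10 were above 0, with a median of 0.57. Of 11 Purkinje cell markers 9 were below 0, with a median of -0.45; of 8 interneuron markers 7, with -0.55; of 9 endothelial and pericyte markers 9, with -0.52. The part of these cell types in the subunit values was not tested.

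Array by array, the mean deviation of the 81 genes from their wild types was 0.092, 0.22 and 0.22 on knock-in arrays 1, 2 and 3. The corresponding means of the Purkinje cell list were -0.21, -0.68 and -0.55, and those of the microglia list 0.82, 0.37 and 0.64. Knock-in array 1 thus had the smallest subunit difference, the smallest Purkinje cell difference and the largest microglia difference of the 3.

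**Figure D3:**
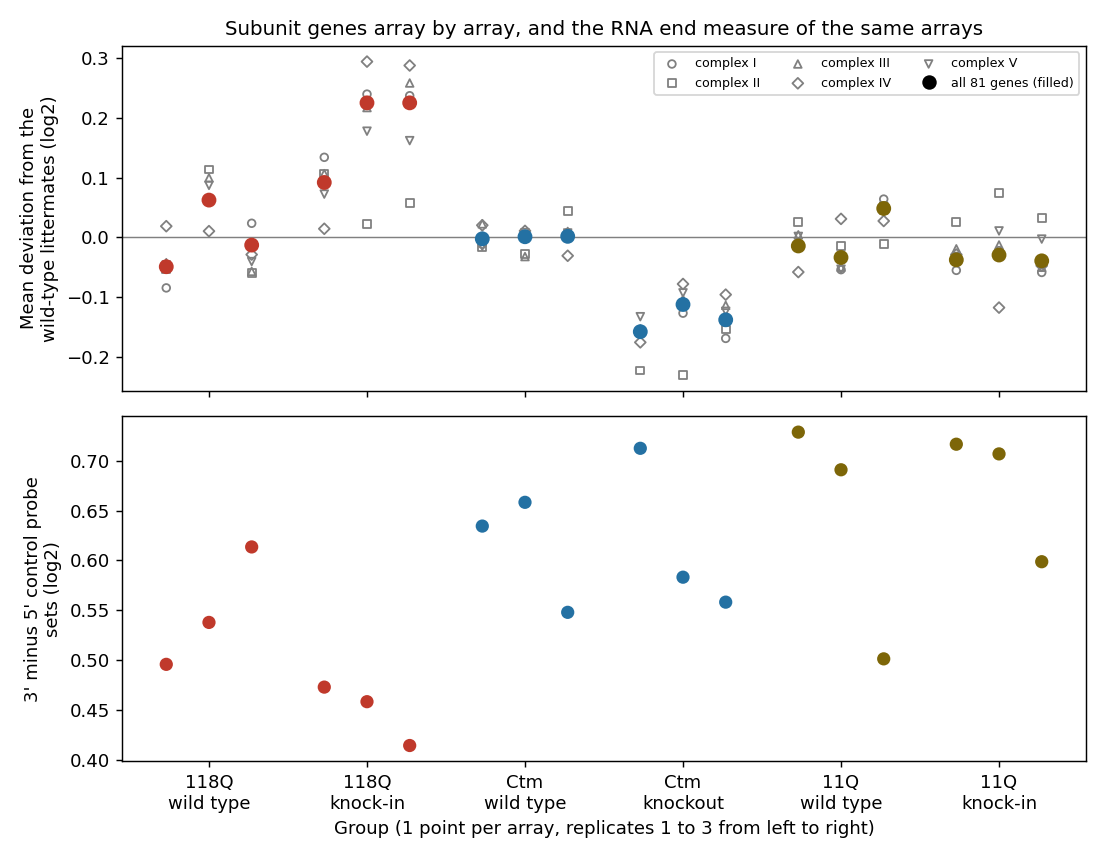
Upper panel: mean deviation of the subunit genes from the mean of their own wild-type littermates (log2) on each of the 18 arrays, for all 81 genes (filled) and by complex (open symbols). Lower panel: the 3' minus 5' control measure (log2) of the same arrays. The 118Q knock-in arrays sit at 0.092 to 0.22 and the Ctm knockouts at -0.16 to -0.11, and the 118Q knock-in arrays have the lowest control measures.

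In the Ctm knockout, 0 subunit genes passed the threshold in limma in either direction, where 0.929% of all genes passed, 0.835% higher and 0.0934% lower. At an unadjusted p below 0.05, 13 subunit genes were on the low side and 1, Cox7c, on the high side; over all genes the shares were 7.29% and 4.72%. The set lay on the low side of 0 in 73 of 81 genes, with a median of -0.15, while over all genes 35.6% were above 0 and the median was -0.060. Among genes left without the dimmer 50%, 31.9% were above 0 and the median was -0.087. In 54 subunit genes all 3 knockouts lay below all 3 wild types, and in 1 above; the shares over all genes were 15.1% and 6.19%, together 21.3%.

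The differences were small and even. On the 3 knockout arrays the mean deviation of the 81 genes was -0.16, -0.11 and -0.14, and 10, 11 and 5 genes respectively were above their wild-type mean. The 3' minus 5' measure did not separate the groups here, at 0.56 to 0.71 on knockouts and 0.55 to 0.66 on wild types. Of 11 microglia markers 8 were below 0, with a median of -0.27, and of 11 Purkinje cell markers 7, with -0.034. Choroid plexus markers had a median of -1.1 in this line and of -2.4 in 11Q, and their mean varied from -2.4 to 1.7 between arrays. The part of these cells was not tested.

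Complex II stood lowest by its median, at -0.22, and all 4 of its genes had knockouts below every littermate, against 15.1% of all genes. Against the 6 wild types from the 118Q and 11Q lines the Ctm wild types were themselves at a median of 0.16 for this complex and the knockouts at -0.029, and for Sdhc the knockouts were higher, at 0.42 (adjusted p = 0.0383 in limma). Sdhb read 8.19, 8.20 and 8.27 on knockouts and 8.49, 8.49 and 8.59 on wild types. Its change of -0.30 (SE 0.086) had the smallest p of the 81 genes in this line, with an adjusted p of 0.111 in limma. Sdhd was at -0.20 (adjusted p = 0.386), Sdhc at -0.25 (adjusted p = 0.542) and Sdha at -0.064 (adjusted p = 0.824).

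In complex I, 34 of 35 genes were below 0, with a median of -0.15, where over all genes 35.6% were above 0. In 26 the knockouts were lower without overlap, against 15.1% of all genes. Ndufb7, a membrane arm subunit, was at -0.23 (SE 0.088, adjusted p = 0.279), and Ndufb1, another, at -0.29 (SE 0.11, adjusted p = 0.279). Ndufa7 at -0.26, Ndufb9 at -0.22 and Ndufa2 at -0.21 followed by p, with adjusted p-values of 0.285 to 0.342. The exception was the core gene Ndufs1 at 0.076. Ndufa6, which rose in 118Q, was at -0.014, with knockouts from 8.10 to 8.20 and wild types from 8.13 to 8.23.

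Complex III had a median of -0.16 and 7 of 8 genes below 0, led by Uqcrq at -0.25 (SE 0.12, adjusted p = 0.426) and with Uqcr10 at -0.18 (SE 0.10, adjusted p = 0.506). Complex V had a median of -0.13 and 15 of 17 below 0, with Atp5e at -0.29 (SE 0.14, adjusted p = 0.439) and Atp5g2 at -0.23 (SE 0.10, adjusted p = 0.371). The genes at or above 0 in complex V were Atp5b at 0.019 and Atp5pb at 0.023.

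Cox7c, a small subunit of complex IV, was the 1 gene whose knockouts lay above their wild types. Its probe set is dim, with a mean of 4.15 on the 18 arrays, and whether it reports the main transcript was not tested. It read 3.95, 4.17 and 3.96 on knockouts and 3.92, 3.37 and 2.91 on wild types. The wild types were spread over 1 log2 unit and lay below all 6 wild types from the 118Q and 11Q lines, which ran from 4.11 to 4.59. The change was 0.63 (SE 0.21, adjusted p = 0.208) against the littermates and -0.22 against those 6 arrays. In 118Q the same gene was at 0.61 (adjusted p = 0.153). Its other probe set, dimmer still with a mean of 1.98, gave 0.71 in Ctm and 0.22 in 118Q.

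Set against the 6 wild types from the 118Q and 11Q lines in place of their littermates, the Ctm knockouts had a median of -0.11, with 65 of 81 genes below 0. In this comparison 10 subunit genes were lower and 3 higher at an adjusted p below 0.05 in limma, where 6.95% and 3.39% of all genes were; the 3 higher were Atp5b, Cox8c and Sdhc. Line and genotype cannot be told apart there, and the Ctm wild types themselves were at a median of 0.044 against the same 6 arrays. For 23 subunit genes the knockouts lay below all 9 wild types of the study, against 3.95% of all genes. Without Ctm wild-type arrays 2 and 3, the arrays low in Uty, the median was -0.14.

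**Figure D4:**
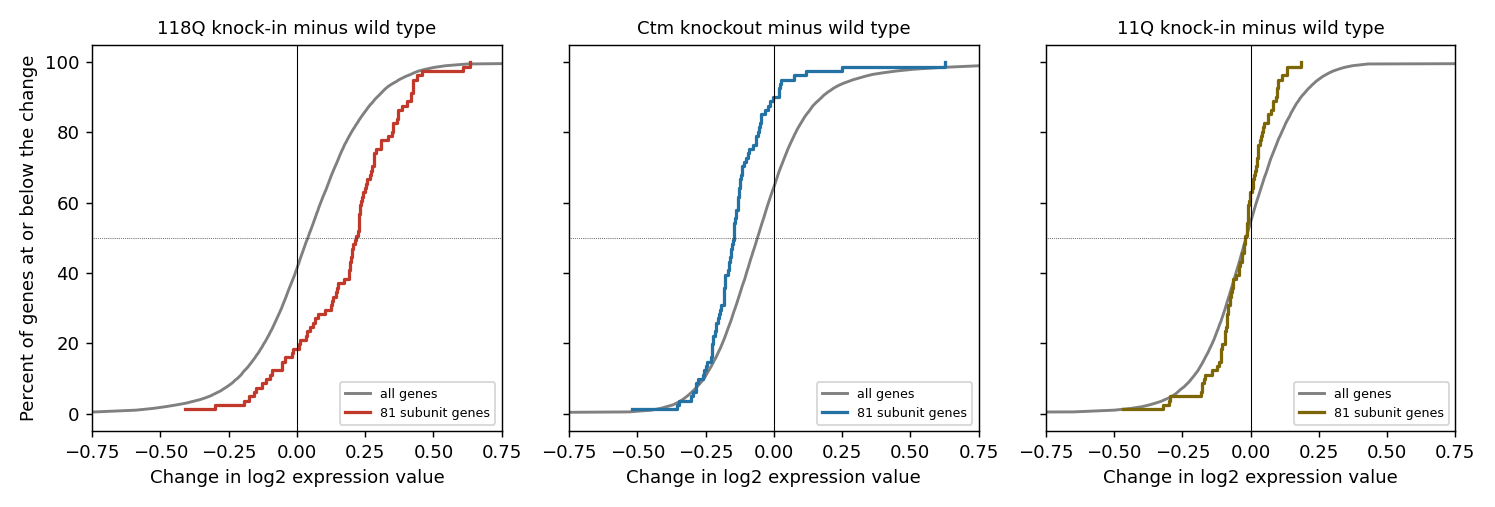
Cumulative distribution of the change in log2 expression value (horizontal axis) over the 81 subunit genes (coloured) and over all 18193 genes (grey) in each line; the vertical axis is the percent of genes at or below a change. At the 50% line the subunit genes are at 0.22 in 118Q, -0.15 in Ctm and -0.019 in 11Q, and all genes at 0.040, -0.060 and -0.017.

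The 11Q knock-in, with the short glutamine stretch, had 0 subunit genes past the threshold in limma, as had all genes (0%). At an unadjusted p below 0.05 there was 1 subunit gene, on the low side, against 5.49% of all genes, 2.27% higher and 3.22% lower. Groups did not overlap for 7 subunit genes on the high and 9 on the low side, against 10.3% of all genes, 4.14% high and 6.12% low. The median of the 81 changes was -0.019 and 30 were above 0; over all genes the values were -0.017 and 45.7%. With the arrays quantile normalised or centred on their medians the sign of that median turned, to 0.0091 and 0.0053.

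The gene past the unadjusted threshold was Cox6b2, the testis form of a complex IV subunit. It read 4.06, 4.16 and 4.37 on knock-in arrays and 4.54, 4.76 and 4.70 on wild types, a change of -0.47 (SE 0.18, adjusted p = 0.876). The wild types of the other lines ranged from 4.43 to 5.19, so the 11Q knock-ins were below all 9 wild types. Next by p came Ndufs7, a core subunit of complex I, at -0.17 (SE 0.099), and Ndufs5, an accessory one, at -0.18 (SE 0.10), both with an adjusted p of 0.876. Ndufb10, of the membrane arm, was at -0.18, Cox7a1 at -0.30 and Uqcr10 at -0.088. In complex II, Sdhc was at 0.13 and Sdhd at 0.027. Uqcrc2 was at -0.32 (SE 0.19), again with wide wild types, from 8.23 to 8.96. Atp5h, of the stalk, was at -0.18 (SE 0.11) and Atp5mpl at 0.18 (SE 0.13). Dimmer probe sets of Atp5h, Uqcrc2 and Ndufs7 gave 0.037, -0.025 and 0.098. The mean deviations on the 3 arrays, -0.038, -0.030 and -0.039, lay at the low end of the wild-type range of -0.034 to 0.048, and knock-in arrays 1 and 3 were just below it.

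The 118Q and Ctm changes rest on different littermates and could be tested against each other. Their difference passed the threshold in limma for 8 subunit genes, all higher in 118Q, and for 0 in the opposite direction; over all genes 2.93% passed, 1.84% higher and 1.09% lower. They were Ndufa3, Ndufa7, Ndufb1, Ndufb9 and Ndufs4 of complex I, Sdhb, Uqcr10 and Atp5g2. The median difference over the 81 genes was 0.35, with 72 above 0, against 63% of all genes and a median of 0.089. Set against the 11Q change, the 118Q and the Ctm changes each differed for 0 subunit genes in limma, and for 0% of all genes. At an unadjusted p below 0.05, 118Q was higher than 11Q for 26 subunit genes and lower for 0, where 10.3% of all genes were past it, 7.36% higher and 2.97% lower. Smallest were the p-values of Ndufa6 at 0.47 (adjusted p = 0.24), Uqcr10 at 0.51 and Ndufv2 at 0.36. Ctm was higher than 11Q for 1, Cox7c at 0.71, and lower for 3, among them Ndufa7 at -0.36 and Sdhb at -0.31, where 8.48% of all genes were past it, 4.39% higher and 4.09% lower.

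Ndufb9 had the smallest p. Its 118Q knock-ins read 9.42 to 9.55 against wild types of 9.01 to 9.27, and its Ctm knockouts 8.97, 9.01 and 8.97 against 9.18, 9.21 and 9.24. The knockouts were lower than every other array of the study and the 118Q knock-ins higher than every other. The difference was 0.63 (SE 0.13, adjusted p = 0.0204).

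Ndufa7 went from 8.35, 8.48 and 8.23 in wild types to 8.56, 8.86 and 8.80 in 118Q knock-ins, and from 8.47, 8.62 and 8.69 to 8.36, 8.33 and 8.30 in Ctm knockouts. The 2 wild-type groups themselves lay apart, with means of 8.35 ± 0.13 and 8.59 ± 0.12 (SD, n = 3), so the knockouts were at the level of the 118Q wild types. The difference was 0.65 (SE 0.14, adjusted p = 0.028).

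For Sdhb the difference was 0.52 (SE 0.12, adjusted p = 0.0354). In the remaining genes it was 0.65 for Ndufb1, 0.61 for Uqcr10, 0.57 for Ndufs4, 0.55 for Ndufa3 and 0.54 for Atp5g2, with adjusted p-values of 0.0354 to 0.0492. The Ctm part of these differences depended on the wild types used. Against the 6 wild types from the 118Q and 11Q lines, the knockouts were at -0.023 for Ndufa3, -0.050 for Uqcr10 and -0.094 for Ndufb1. Against their littermates these were -0.18, -0.18 and -0.29. Ndufs4, Atp5g2 and Sdhb were at -0.29, -0.17 and -0.16 against the same 6 arrays. The probe set read for Ndufb1 is dim, between 3.59 and 4.33 on all arrays. Whether it reports the main transcript of the gene was not tested. In 19 of the 81 genes the 118Q knock-ins were above and the Ctm knockouts below their wild types without overlap in either line, against 3.3% of all genes, and in 0 the other way round, against 0.753%.

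**Figure D5:**
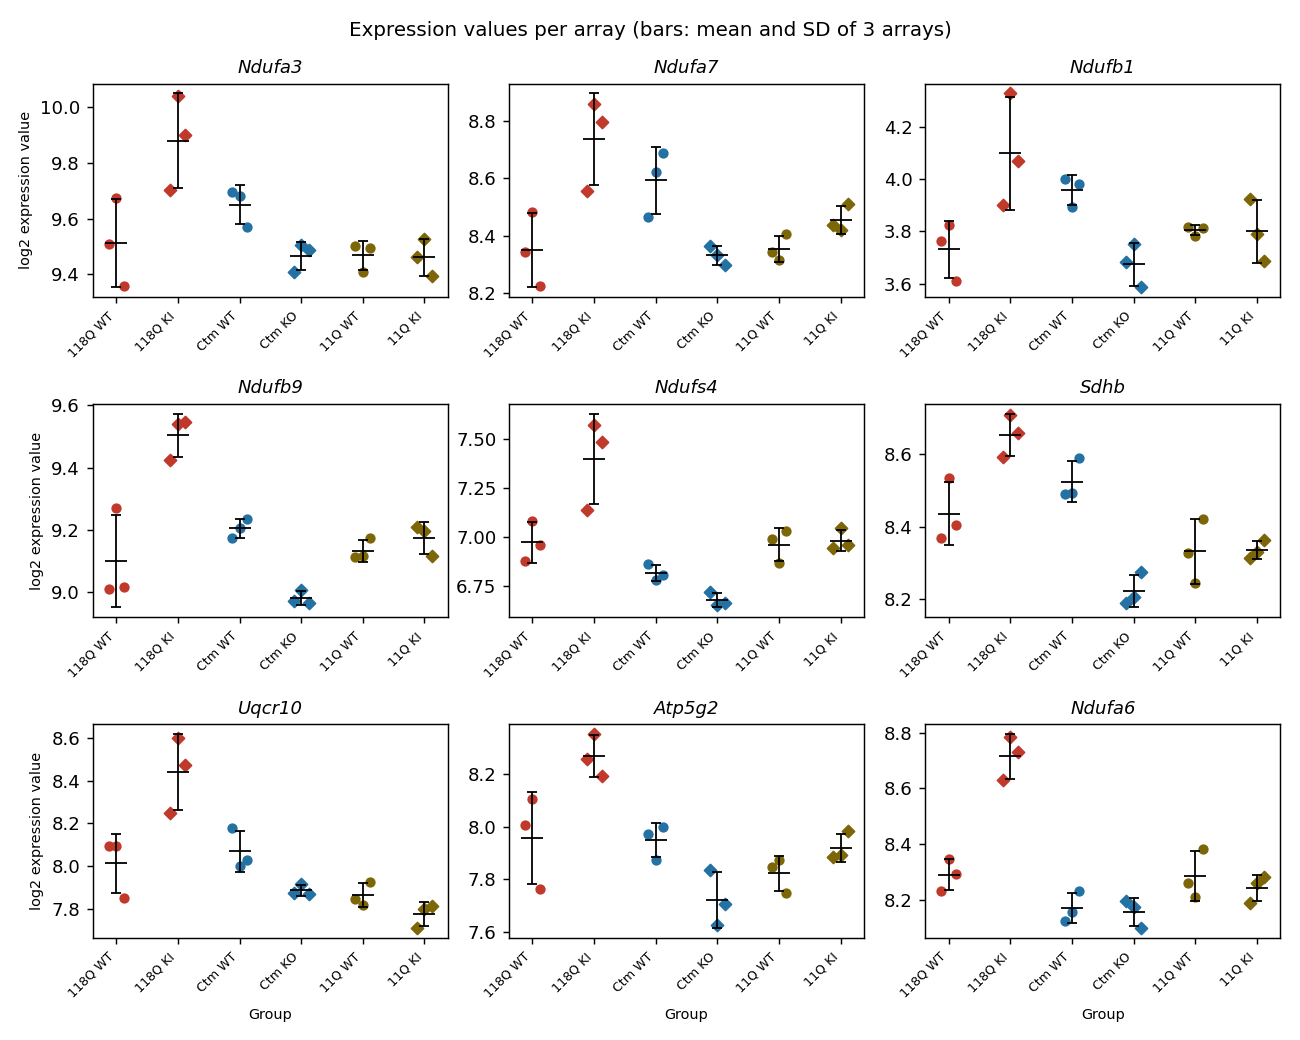
Log2 expression values on each array, by group, for the 8 genes whose 118Q and Ctm changes differed and for Ndufa6 (last panel); circles are wild types, diamonds mutants, and bars the mean and SD of 3 arrays. The 118Q knock-ins are above their wild types in every panel, and the Ctm knockouts below theirs in every panel but that of Ndufa6.

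These 8 calls, too, changed with single arrays. No gene was left without 118Q wild-type array 3, knock-in array 3, Ctm wild-type array 3 or knockout array 1. The share of all genes was 0.132% to 0.539% in these settings. 1 to 5 subunit genes passed without 118Q wild-type array 1, knock-in array 2, Ctm wild-type array 1 or 2, or knockout array 2 or 3. There 0.797% to 3.93% of all genes passed, against 2.93% with all arrays. Uqcrq, which passed without Ctm wild-type array 1, was not among the 8. Without 118Q wild-type array 2, 10 passed, with 2.46% of all genes, and without 118Q knock-in array 1, 32 passed, with 5.61%. With the 3' minus 5' covariate or with the 12 arrays of both lines alone the count was 0. There 0.368% and 0.445% of all genes passed. The median difference kept between 0.32 and 0.41 when any 1 array was left out, and was 0.35 without Ctm wild-type arrays 2 and 3. That last fit leaves 1 Ctm wild-type array, so only the median is given and it does not show that the calls hold.

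Several subunits have a form made in most tissues and one restricted to muscle, testis or low oxygen. All 4 restricted forms among the fixed pairs of complex IV that belong to muscle or lung (Cox4i2, Cox6a2, Cox7a1 and Cox8b) had probe sets below the median level of all genes, as had Ndufa4l2. On 118Q knock-in arrays the common forms were at 0.27 for Cox4i1, 0.058 for Cox6a1, 0.23 for Cox6b1, 0.21 for Cox7a2, 0.23 for Cox8a and 0.29 for Ndufa4, which despite its symbol is a subunit of complex IV. The restricted forms were at 0.046 for Cox4i2, -0.18 for Cox6a2, 0.19 for Cox6b2, 0.13 for Cox7a1, 0.63 for Cox8b and 0.13 for Ndufa4l2, with SEs of 0.13 to 0.31. None of these 12 passed the threshold, and a dimmer probe set of Cox6a1 gave 0.27. In Ctm, Cox7a1 had the largest negative value of the 81 genes, -0.52 (SE 0.20, adjusted p = 0.294), with knockouts at 3.37, 3.72 and 3.44 and wild types at 4.01, 3.86 and 4.22.

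The genes Atp5g1, Atp5g2 and Atp5g3, encode the same mature c subunit of the ATP synthase rotor with different import sequences. In 118Q they were at 0.15, 0.31 and -0.017 (SEs 0.098, 0.10 and 0.083), and only Atp5g2 had groups that did not overlap, at 8.26, 8.35 and 8.19 against 8.01, 8.11 and 7.76. In Ctm all 3 were lower without overlap, at -0.19, -0.23 and -0.16, where 15.1% of all genes were.

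ND5, a complex I subunit made in the mitochondrion itself, was the 1 mitochondrial subunit with a probe set of its own here and is not among the 81. It was at 0.22 in 118Q (SE 0.14, adjusted p = 0.478) and at 0.54 in Ctm (SE 0.14, adjusted p = 0.0781), where knockouts read 11.02, 10.75 and 10.79 and wild types 10.64, 10.23 and 10.09. Its sign in Ctm was thus opposite to that of 73 of the 81 nuclear genes.

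Genes next to the subunits in function were read from lists. Among 43 assembly factors, which build the complexes and are not part of them, 35 were above 0 in 118Q, with a median of 0.19, and 1 rose: Uqcc2, a complex III assembly factor, at 0.63 (SE 0.14, adjusted p = 0.0345 in limma). Over all genes 58.7% were above 0 and 0.808% rose at this threshold. Cox19, for complex IV, was at 0.48 (adjusted p = 0.0542). In Ctm, where 35.6% of all genes were above 0 and 0.929% passed the threshold, 38 of the 43 were below 0. Their median was -0.17, with 0 past the threshold, led by Ndufaf3 at -0.30 (adjusted p = 0.155) and Uqcc3 at -0.25. In 11Q the median was -0.096, with Lyrm7 at 0.25 and Ndufaf7 at -0.22.

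The 13 subunits and carriers outside the symbol rule had medians of 0.071 in 118Q, -0.17 in Ctm and -0.077 in 11Q. Among them Coq9, for ubiquinone synthesis, was at 0.37 and Coq6 at 0.26 in 118Q, and cytochrome c1 (Cyc1) at -0.21 and Coq7 at -0.29 in Ctm. Of 18 genes that maintain and express the mitochondrial genome or regulate the subunits, 12 were above 0 in 118Q (median 0.049), with Slirp, a gene whose product stabilises mitochondrial transcripts, at 0.39 (adjusted p = 0.0598) and the polymerase gene Polg at 0.28. In 11Q Polg2 was at -0.37 and Gabpa at -0.21, and, from the list before, Coq9 at 0.24 and Atpif1 at -0.21. In Ctm Polrmt was at -0.19, and Gabpa, a transcription factor that binds many subunit promoters, was at 0.39 (adjusted p = 0.21) and at -0.32 against the 6 wild types from the 118Q and 11Q lines.

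Lists next to the chain had medians below 0 in 118Q, though knock-in array 1 was above its wild-type mean for the citric acid cycle (0.047) and the carriers and porins (0.052). Of 15 citric acid cycle genes 11 were below 0, with a median of -0.088, including Mdh2 at -0.29, while Suclg2 was at 0.33. Of 14 glycolysis genes 12 were below 0, with a median of -0.13, Pgk1 at -0.26 and Pgam1 at -0.23. Of 15 carriers and porins 10 were below 0, with a median of -0.088, Opa1 at -0.26 and Mpc1 at 0.24. In Ctm these 3 lists had medians of -0.090, -0.15 and -0.093, with Dlst at -0.22 and Suclg1 at -0.16, Tpi1 at -0.24 and Ldha at -0.23, and Slc25a11 at -0.21 and Phb2 at -0.24. In 11Q the medians were -0.023, 0.022 and -0.040, with Suclg2 at -0.21, Fh1 at -0.14, Pfkm at 0.17, Pfkl at 0.22, Vdac2 at 0.12 and Slc25a11 at 0.11. None of these genes passed the threshold in any line.

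Subunit genes are short. Their median genomic span in the RefSeq table was 7.18 kb, against 20.3 kb for the 18029 genes with a span. Over all genes of up to 10 kb the median change was 0.082 in 118Q and -0.087 in Ctm, and over longer genes 0.021 and -0.050. The 58 subunit genes of up to 10 kb were at 0.23 and -0.15, and the 23 longer ones at 0.19 and -0.14. Neither span nor brightness was matched on either side of 10 kb, and a part of gene length in the changes was not tested.

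Promoters of 4 of the 9 genes called in 118Q or in its difference from Ctm are shown, because the subunits are known to share regulators, among them NRF1, the ETS factor GABPA and YY1. Windows of 300 bases, from 250 before to 50 after the start, came from RefSeq on GRCm38.p6 and were found for 66 of the 81 genes, though not for Ndufb9. Below, Ndufa6 and Uqcr10 rose in 118Q, and Ndufs4 and Atp5g2 differed between 118Q and Ctm. All 4 lie on the minus strand and are written 5′ to 3′ in the direction of the gene; capitals mark an exact match to a searched word.
Ndufa6, chr15:82354242-82354541: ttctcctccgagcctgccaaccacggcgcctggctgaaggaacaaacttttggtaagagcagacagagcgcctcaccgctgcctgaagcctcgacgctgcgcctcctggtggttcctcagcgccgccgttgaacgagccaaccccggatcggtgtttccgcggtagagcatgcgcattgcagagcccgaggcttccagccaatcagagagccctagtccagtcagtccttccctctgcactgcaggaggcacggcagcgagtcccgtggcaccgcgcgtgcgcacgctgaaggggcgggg
Uqcr10, chr11:4704295-4704594: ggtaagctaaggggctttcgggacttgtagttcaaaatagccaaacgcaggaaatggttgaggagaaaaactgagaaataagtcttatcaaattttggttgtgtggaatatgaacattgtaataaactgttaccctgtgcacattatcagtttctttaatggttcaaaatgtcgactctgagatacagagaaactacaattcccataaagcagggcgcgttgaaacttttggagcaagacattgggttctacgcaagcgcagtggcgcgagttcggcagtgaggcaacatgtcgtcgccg
Ndufs4, chr13:114388045-114388344: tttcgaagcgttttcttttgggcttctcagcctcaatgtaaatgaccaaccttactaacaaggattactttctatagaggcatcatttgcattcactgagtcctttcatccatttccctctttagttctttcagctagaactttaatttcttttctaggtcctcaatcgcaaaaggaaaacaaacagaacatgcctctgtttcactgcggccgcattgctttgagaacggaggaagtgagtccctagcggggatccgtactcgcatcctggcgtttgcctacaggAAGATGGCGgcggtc
Atp5g2, chr15:102670998-102671297: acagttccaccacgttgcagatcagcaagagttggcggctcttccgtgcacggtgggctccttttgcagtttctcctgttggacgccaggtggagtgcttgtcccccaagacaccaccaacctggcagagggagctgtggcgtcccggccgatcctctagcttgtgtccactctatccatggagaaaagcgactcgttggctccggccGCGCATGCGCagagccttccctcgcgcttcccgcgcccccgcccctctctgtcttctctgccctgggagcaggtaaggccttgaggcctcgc

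The words searched on both strands were GCGCATGCG for NRF1, CCGGAAGT for the ETS factors and AAGATGGCG for YY1. The NRF1 word reads nearly the same on both strands, so its matches in Atp5g2 overlap, beginning 42 and 41 bases before the start. The YY1 word in Ndufs4 begins 36 bases after the start. The windows of Ndufa6 and Uqcr10, like those of Ndufa3, Ndufa7, Ndufb1 and Sdhb, held none of the 3 exact words. Sites that differ from a word in any base were not searched for, so these windows may still hold such sites. Among the 66 subunit windows NRF1 matched in 7 (10.6%), ETS in 5 (7.58%) and YY1 in 6 (9.09%). Among the windows of 27025 genes the shares were 1.95%, 4.31% and 1.64%.

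Any of the 3 words stood in 17 subunit windows (25.8%, against 7.48% of all genes), in 6 of 31 for complex I, 0 of 3 for complex II, 3 of 5 for complex III, 2 of 12 for complex IV and 6 of 15 for complex V. Genes with and without a word had median changes of 0.23 and 0.22 in 118Q and of -0.14 and -0.15 in Ctm.

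Probe sets of 1 gene could differ in size or sign, as given above for Ndufs4, Uqcrc2, Atp5a1, Cox6c, Cox5a, Cox6a1, Atp5h and Ndufs7. Besides the chosen ones, 60 probe sets of 40 subunit genes had a mean above the median of all genes, and 52 of the 60 had the sign of the chosen probe set in 118Q, 55 in Ctm and 34 in 11Q. Their medians were 0.20, -0.17 and -0.024. Of the 81 chosen probe sets, 12 carry the suffix for probes shared among transcripts and 5 the suffix for probes that may bind other genes, so processed pseudogenes and close copies may add to those values.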

How the data were processed

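RNA of 18 cerebellum samples was hybridised to Affymetrix arrays, 3 for each of 6 groups; whether a sample is 1 animal is not stated in the labels. The deposited log2 values per probe set were made by the authors with RMA, per the submitters' processing notes; version, background step and scale zero are not given in the sources used here, so changes of dim genes depend on them. Of 45101 probe sets, 34945 had exactly 1 symbol in the platform annotation; the brightest per gene gave 18193 genes, unfiltered. limma 3.58.1 (R 4.3.3) fitted 1 mean per group over all 18 arrays (12 residual and 5.98 prior degrees of freedom), with two-sided tests adjusted by Benjamini-Hochberg over all genes; the script was tested on simulated data. The number of arrays limits precision. The symbol list, pathway lists and tests were chosen with earlier results of these data known. Named are, per line, the 8 smallest p-values, 2 per complex and 2 per pathway list, 3 per difference, complex II, isoform pairs and c subunit genes; other named genes were chosen after their values were seen. Alternatives covered probe sets, dim genes, eBayes and array weights, scaling, RNA quality, replicate block, sample choice and controls. Gene spans and promoters came from RefSeq on GRCm38.p6.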

Additional observations from a re-analysis of the deposited data

Results flagged for a closer look

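The change in 118Q and the change in Ctm differed, by the limma test of the difference itself, for 8 subunit genes. The differences, 118Q minus Ctm, were 0.63 for Ndufb9, 0.65 for Ndufa7, 0.52 for Sdhb, 0.65 for Ndufb1, 0.61 for Uqcr10, 0.54 for Atp5g2, 0.55 for Ndufa3 and 0.57 for Ndufs4, each with an SE of 0.12 to 0.15. Over the 23 settings run for it the Ndufs4 difference ran from 0.11 to 0.70 and the Ndufb9 difference from 0.51 to 0.71.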

How the results depend on the processing

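The number of subunit genes past the threshold changed with most settings, the medians much less; the causes were not tested. In 118Q (3 genes) it was 3 with the mean of probe sets, 1 with every probe set tested by itself, 10 without the dimmer genes, 8 with trended robust eBayes, 32 with array weights, 5 after quantile normalisation, 28 against 6 wild types, and 0 with the RNA covariate or the 6 arrays alone. The share of all genes past the threshold moved too, from 1.54% to 6.23% without the dimmer genes, 9.56% with array weights (where 1 of the 32 was lower) and 9.12% against 6 wild types. In Ctm (0 genes) the count was 1 without the dimmer genes, 2 with array weights and 13 against the 6 wild types. There 3.37%, 3.45% and 10.3% of all genes passed, against 0.929% in the first fit. For 118Q minus Ctm (8 genes), in the order of the 118Q counts, it was 13, 5, 21, 21, 33 and 5. With arrays centred on their medians it was 14. The shares of all genes were 2.95%, 1.74%, 11.7%, 3.76%, 10.4%, 2.91% and 3.37%, against 2.93% in the first fit. The count was 0 with the RNA covariate (0.368% of all genes) or the arrays of both lines alone (0.445%). Without Ctm wild-type arrays 2 and 3, which leaves 1 Ctm wild-type array, the median difference was 0.35, and calls are not given. Replicate numbers did not pair the arrays (correlations of -0.20 to 0.23). The fit with the replicate block called 0 in 118Q and 0 for the difference, where 0.385% and 0.577% of all genes passed. Leaving out 1 array gave 0 to 25 genes in 118Q, 0 to 1 in Ctm and 0 to 32 for the difference. The shares of all genes ran from 0.011% to 5.17%, from 0.0055% to 2.46% and from 0.132% to 5.61%. The 118Q medians were 0.18 to 0.29. The Ctm median was -0.18 with centred arrays and -0.11 against the 6 wild types. The 11Q median reversed to 0.0091 after quantile normalisation and 0.0053 with centred arrays.

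Of the 82 gene values re-run under each setting, these reversed; the remaining named values, many near 0, were not all re-run. With the mean of probe sets, Sdha in 118Q was at -0.082, Dlst in Ctm at 0.022, and in 11Q Sdhd at -0.13, Coq9 at -0.064 and Atpif1 at 0.12. With array weights Sdha in 118Q was at -0.026. Against the 6 wild types, Cox7c in Ctm was at -0.22, Gabpa in Ctm at -0.32 and Sdhd in 11Q at -0.0084; outside the 82, Sdhc, Cox4i2 and Ndufa4l2 in Ctm turned to 0.42, 0.14 and 0.21, and Sdhd and Cox6a2 in 118Q to 0.020 and 0.096. Leaving out 1 array gave -0.036 to 0.068 for Sdha in 118Q, and in 11Q -0.011 to 0.25 for Sdhc -0.0085 to 0.082 for Sdhd and -0.014 to 0.29 for Pfkm. The number of arrays, 3 a group, limits the precision of every value.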
